A study of Mus musculus with 21 samples.

Results

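The skin surface is formed by keratinocytes, which secrete antimicrobial proteins, and 10 mouse genes for such proteins are described here: the beta-defensin genes Defb1, Defb3, Defb4, Defb6 and Defb14, and Lcn2, Slpi, Wfdc12, Reg3g and Pglyrp1. They were taken by name from the 49315 Ensembl gene identifiers in the count tables, and all 10 were found. The question was how their transcripts stood in adult epidermis in which both AP-2 transcription factor genes, Tfap2a and Tfap2b, were targeted. Total RNA from epidermal sheets was sequenced after depletion of ribosomal RNA, in 7 groups of 3 samples named by genotype and age. The comparison used 3 libraries of genotype K14CreTfap2afl/flTfap2bfl/fl at 6 months of age, called double knockout here, and 3 libraries of the strain-specific control at 6 months, whose genotype is given as WT. The labels give no Cre or floxed allele for these controls. The other libraries with counts were 2 of genotype K14CreTfap2bfl/fl at 3 weeks, called Tfap2b knockout. The K14Cre transgene drives Cre with the Krt14 promoter, so deletion is aimed at keratinocytes and not at the immune or dermal cells that come with a sheet. Nothing says whether the samples came from separate animals, so p-values measure only the spread between these samples.

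Beta-defensins are short cationic peptides, held in shape by disulfide bonds between conserved cysteines, that damage microbial membranes and attract immune cells. Defb1 is regarded as a constitutively made epithelial defensin, whereas Defb3, Defb4 and Defb14, the counterpart of a human defensin abundant in inflamed skin, are inducible. Lcn2 encodes lipocalin, which starves bacteria of iron by binding their siderophores, Slpi and Wfdc12 encode small proteins with WAP domains, of which Slpi inhibits neutrophil elastase, Reg3g encodes a lectin that binds peptidoglycan, and Pglyrp1 encodes a peptidoglycan recognition protein best known from neutrophil granules. In epidermis such genes respond to cytokines of the interleukin-17, interleukin-22 and interleukin-36 families through NF-kB, STAT3, C/EBP and AP-1 factors.

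The 5 beta-defensin genes lie on chromosome 8, and their coding sequences are shown because they set how far the counts of such similar genes can be told apart. The 4 genes Defb14 (chr8:19194357-19195212), Defb4 (chr8:19198706-19201545), Defb6 (chr8:19225478-19228209) and Defb3 (chr8:19293360-19295291) are clustered and Defb1 (chr8:21776599-21795185) lies apart, all on the plus strand of GRCm38. The sequences are those of the GENCODE M21 transcripts from start to stop codon, 5′ to 3′, with in-frame TGC and TGT codons, which encode cysteine, in capitals.
Defb1: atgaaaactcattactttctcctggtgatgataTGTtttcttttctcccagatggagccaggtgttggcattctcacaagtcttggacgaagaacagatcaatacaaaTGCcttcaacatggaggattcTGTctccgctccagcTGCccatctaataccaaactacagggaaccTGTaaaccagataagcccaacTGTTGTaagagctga
Defb3: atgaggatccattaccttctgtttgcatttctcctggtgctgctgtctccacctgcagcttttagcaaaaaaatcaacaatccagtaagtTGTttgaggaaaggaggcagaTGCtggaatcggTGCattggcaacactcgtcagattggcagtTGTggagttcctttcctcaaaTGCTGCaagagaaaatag
Defb4: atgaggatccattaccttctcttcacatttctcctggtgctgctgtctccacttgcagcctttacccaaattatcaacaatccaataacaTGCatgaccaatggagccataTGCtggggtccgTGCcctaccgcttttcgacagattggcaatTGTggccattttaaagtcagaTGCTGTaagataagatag
Defb6: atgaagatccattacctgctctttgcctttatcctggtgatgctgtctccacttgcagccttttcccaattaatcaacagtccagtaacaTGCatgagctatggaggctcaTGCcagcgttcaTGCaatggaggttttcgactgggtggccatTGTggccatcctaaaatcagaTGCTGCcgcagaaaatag
Defb14: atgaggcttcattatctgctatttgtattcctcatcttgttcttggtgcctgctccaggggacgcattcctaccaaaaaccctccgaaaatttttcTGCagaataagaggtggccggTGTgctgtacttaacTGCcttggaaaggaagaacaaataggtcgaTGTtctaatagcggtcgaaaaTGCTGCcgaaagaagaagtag
Defb3, Defb4 and Defb6 each had 192 coding bases and 6 such codons, Defb14 had 204 bases and 6 codons, and Defb1 had 210 bases and 7 codons. Defb4 and Defb6 were the most alike, with 78.65% of aligned positions identical, and Defb3 was 76.04% identical to Defb4 and 71.88% to Defb6. Defb14 was 55.98% to 58.77% identical to those 3, and Defb1 50.45% to 52.04% identical to the other 4. No stretch of 50 bases of the transcripts of Defb1, Defb3, Defb6 or Defb14 occurred in a transcript of another gene, while 5.679% of those of Defb4 also occurred in Defb8, which makes the Defb4 counts uncertain.

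The 8 libraries with counts held 11318181 to 17746284 counts, and the other 13 files, all at 3 weeks, listed every gene at 0. Control replicates 1 and 2 at 6 months stood apart, with counts in 35794 and 39362 genes against 23454 to 25537 in the other 6 libraries. They held 1.61 and 3.19 counts per exonic kb in odorant and vomeronasal receptor genes, where the other 6 libraries held 0.0971 to 0.195. The targeted genes did not show the labels at the level of whole-gene counts: the log2 fold change was 0.47 for Tfap2a (edgeR adjusted p 0.118, and past the threshold at 0.72 without control replicate 3 and at 0.57 without a filter on low counts) and -0.43 for Tfap2b (edgeR adjusted p 0.111). Their paralog Tfap2c was called higher at 0.50 (edgeR adjusted p 0.0384), a call lost in 7 of 16 alternatives, those without control replicate 2 or any 1 double-knockout-labelled library among them. Reads outside a deleted exon count towards both genes, and groups are therefore named below by their labels only. The keratinocyte-defining genes Krt5, Krt14 and Trp63 summed to 4637 to 5581 CPM (counts of the gene per 1000000 counts of the library) in the controls and 9594 to 12377 CPM in the double-knockout-labelled libraries. All 10 keratinocyte markers on the list summed to 13160 to 15762 and 18980 to 23098 CPM, with Krt15 (-1.39, edgeR adjusted p 0.0513) and Lor (-1.28, edgeR adjusted p 0.131) lower without overlap of the groups and Krt10 at 0.04. In bulk tissue, more cells of a type and more RNA per cell cannot be told apart.

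Of the 10 antimicrobial genes, none that could be tested was called different between the double-knockout-labelled and the control libraries at 6 months. Defb6 and Defb1 made up 92.7% to 97.2% of the summed CPM of the 10 genes in each of the 6 libraries. Enough counts for a test were found for 5 of the 10, namely Defb1, Defb6, Lcn2, Slpi and Pglyrp1, and 0 of these passed an adjusted p of 0.05 in edgeR's quasi-likelihood test, 0 had an unadjusted p under 0.05, and in 0 were the 2 groups free of overlap. DESeq2 and limma-voom also called 0 of the 5. Over all 17755 genes tested, 14.9% were called, 6.26% as higher and 8.59% as lower, and in 38.7% the groups did not overlap. The median log2 fold change, double knockout minus control, was -0.11 over the 5 tested genes and -0.035 over all genes tested.

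**Figure D1:**
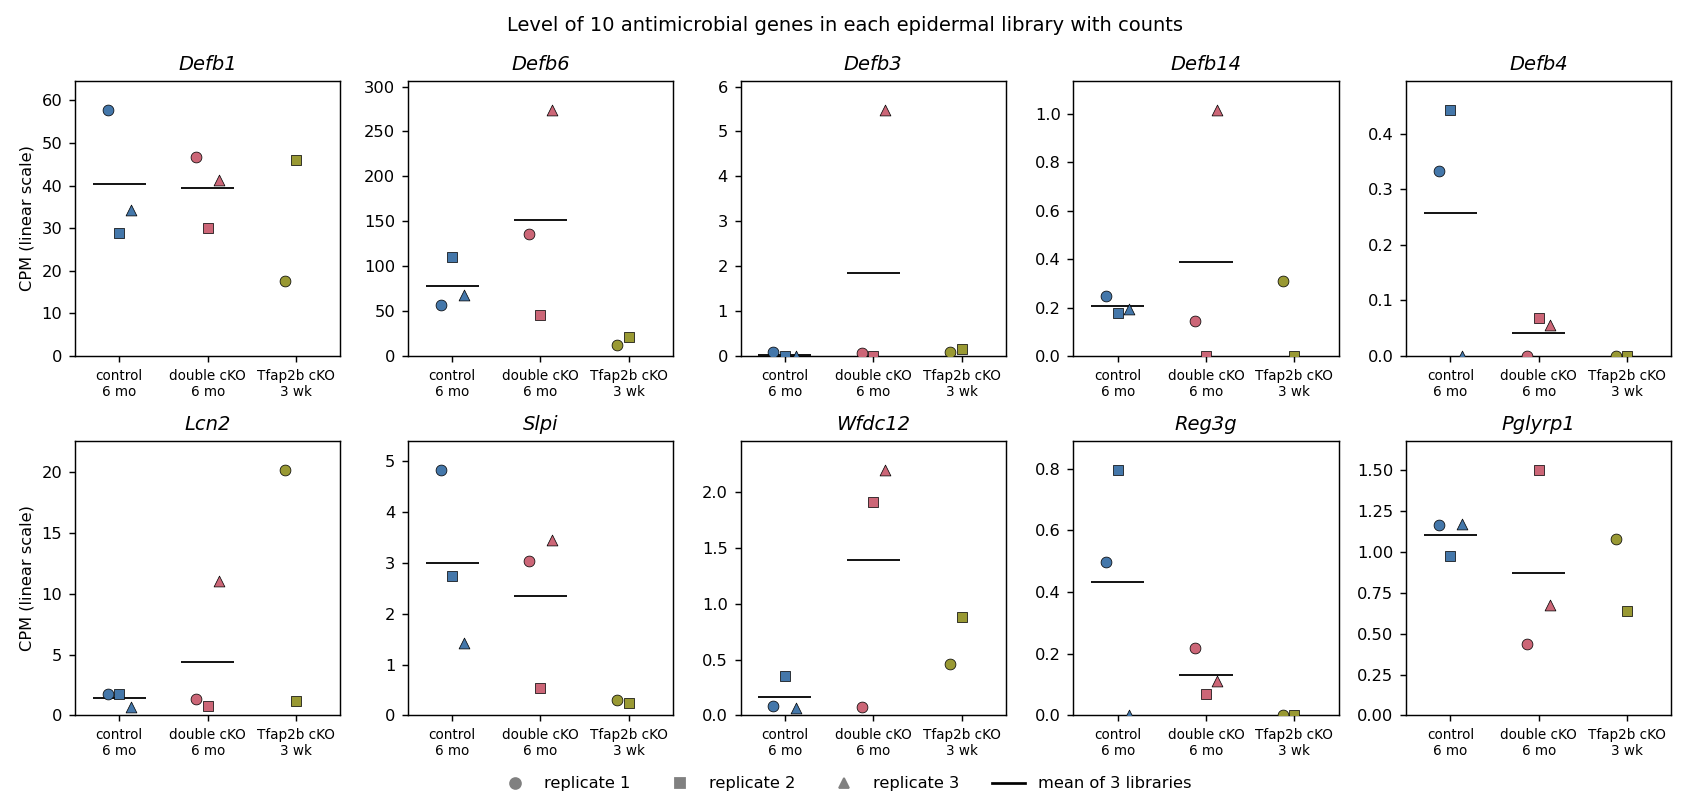
Level of each of the 10 genes in each library with counts, in CPM on a linear scale that differs between panels; symbols give the replicate number and bars the mean of 3 libraries. Defb6 reaches 273 CPM and Defb1 57.6 CPM, no other gene exceeds 20.1 CPM, and the double knockout library of replicate 3 is the top 6-month point for Defb6, Defb3, Defb14, Lcn2 and Wfdc12.

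Among the defensins, Defb6 (ENSMUSG00000050756), close in sequence to Defb4, was the most abundant per length in each 6-month library. It was at 56.5, 110.5 and 67.8 CPM in control replicates 1 to 3 and at 136, 45.1 and 273 CPM in the double-knockout-labelled libraries, on 662 to 4852 counts. The lowest and the highest of the 6 values were both in the double-knockout-labelled libraries, so that group enclosed all 3 controls. Its mean was 78.3 ± 28.5 CPM among the controls and 152 ± 115 CPM in the double-knockout-labelled libraries (SD, n = 3 each). The log2 fold change was 0.88 (SE 0.66, 95% interval -0.76 to 2.53, edgeR adjusted p 0.411). Without the double knockout library of replicate 3 it was 0.16, and without that of replicate 2 it was 1.36 (edgeR adjusted p 0.0739), the closest that any of the 5 tested genes came to the threshold when 1 library was left out.

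Defb1 (ENSMUSG00000044748) had the smallest fitted difference of the 5 tested genes. Control replicates 1 to 3 held 57.6, 29.0 and 34.2 CPM and the double-knockout-labelled libraries 46.6, 30.1 and 41.4 CPM, on 328 to 735 counts. Every double knockout value lay within the range of the controls. The means were 40.3 ± 15.3 and 39.4 ± 8.44 CPM (SD, n = 3 each), and the log2 fold change was -0.11 (SE 0.27, 95% interval -0.72 to 0.50, edgeR adjusted p 0.810). Its interval was the narrowest of the 5, and its sign turned without control replicate 1, at 0.25, and without the double knockout library of replicate 2, at 0.09. The expression of Defb6 exceeded that of Defb1 per length in every 6-month library: Defb6 was at 140 to 846 CPM per exonic kb and Defb1 at 33.2 to 66.1 CPM per exonic kb.

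The 3 inducible defensins were at or near the limit of detection in most libraries, where 3 counts correspond to 0.169 to 0.265 CPM. Defb3 (ENSMUSG00000039775) had 1, 0 and 0 counts in control replicates 1 to 3 and 1, 0 and 97 counts in the double-knockout-labelled libraries. All but 1 of its counts in the latter group thus came from replicate 3, at 5.47 CPM. Defb14 (ENSMUSG00000046354) had 3, 2 and 3 counts among the controls and 2, 0 and 18 counts in the double-knockout-labelled libraries, again with replicate 3 on top, at 1.01 CPM. Defb4 (ENSMUSG00000059230) had 4, 5 and 0 counts among the controls and 0, 1 and 1 counts in the double-knockout-labelled libraries. The receptor-gene background, scaled to the exonic length of Defb4, came to 0.730 counts in control replicate 1 and 1.45 counts in control replicate 2. None of these 3 genes passed the filter on low counts. Without that filter edgeR called Defb3 higher, at a log2 fold change of 3.61 (adjusted p 0.00046), on counts that rest on the double knockout library of replicate 3.

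Lcn2 (ENSMUSG00000026822, chr2:32384633-32388252, minus strand) was likewise highest in the double knockout library of replicate 3. It was at 1.74, 1.77 and 0.716 CPM among the controls and at 1.38, 0.750 and 11.0 CPM in the double-knockout-labelled libraries, on 11 to 195 counts. Replicates 1 and 2 of the double-knockout-labelled libraries fell within the range of the controls, and replicate 3 lay above all other libraries at 6 months. The log2 fold change was 1.50 (SE 0.95, 95% interval -0.57 to 3.75, edgeR adjusted p 0.284), and it turned to -0.40 without the double knockout library of replicate 3. Without a filter on low counts Lcn2 was called higher at 1.63 (edgeR adjusted p 0.0181). Of the 20 counts of Lcn2 in control replicate 2, the receptor-gene background for its exonic length came to 8.37, and to 4.22 of 21 in control replicate 1.

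Of the WAP domain proteins, Slpi (ENSMUSG00000017002, chr2:164354070-164389095, minus strand) was at 4.82, 2.74 and 1.43 CPM among the controls and 3.04, 0.545 and 3.44 CPM in the double-knockout-labelled libraries. The groups overlapped over most of their range, on 8 to 61 counts. The log2 fold change was -0.41 (SE 0.68, 95% interval -1.95 to 1.09, edgeR adjusted p 0.698), and its sign turned without control replicate 1, at 0.10, and without the double knockout library of replicate 2, at 0.08. Wfdc12 (ENSMUSG00000042845, chr2:164189231-164190608, minus strand) had 1, 4 and 1 counts among the controls and 1, 28 and 39 counts in the double-knockout-labelled libraries. It was the one gene of the 10 at which replicate 2 as well as replicate 3 of the double-knockout-labelled libraries stood above every control, at 1.91 and 2.20 CPM, while replicate 1 was at the level of the controls. Wfdc12 did not pass the filter on low counts. In 5 alternative fits whose filter it passed, its log2 fold change was 2.12 to 2.84 (edgeR adjusted p 0.111 to 0.258). Without a filter on low counts it was 2.38 (edgeR adjusted p 0.0787). Its counts are uncertain, because 10.88% of its 50-base stretches, searched on both strands, also occur in A730032A03Rik and the use of strand is not given in the sources used here.

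The peptidoglycan-binding proteins were low throughout. Pglyrp1 (ENSMUSG00000030413, chr7:18871331-18890459, plus strand) was at 1.16, 0.972 and 1.17 CPM among the controls and 0.435, 1.50 and 0.676 CPM in the double-knockout-labelled libraries, on 6 to 22 counts. Replicate 2 of the double-knockout-labelled libraries was the highest of the 6 and replicate 1 the lowest, and the log2 fold change was -0.36 (SE 0.65, 95% interval -1.88 to 1.04, edgeR adjusted p 0.694). Reg3g (ENSMUSG00000030017, chr6:78466269-78468872, minus strand) had 6, 9 and 0 counts among the controls and 3, 1 and 2 in the double-knockout-labelled libraries, and was not tested. The receptor-gene background for the exonic length of Reg3g came to 3.40 and 6.75 counts in control replicates 1 and 2, the libraries that held all of its control counts.

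Per length, the order of the mean levels in the controls was Defb6 at 242 CPM per exonic kb, Defb1 at 46.2, Slpi at 2.54, Defb14 at 1.015, Pglyrp1 at 0.600, Defb4 at 0.568, Lcn2 at 0.537, Wfdc12 at 0.216, Reg3g at 0.204 and Defb3 at 0.101. The control libraries did not overlap at the steps from Defb6 to Defb1, from Defb1 to Slpi and from Defb14 to Pglyrp1, the last resting on 2 or 3 counts of Defb14 per library. That step also rests on the length used. Exonic length was 1837 bases for Pglyrp1 and 2623 for Lcn2, whose transcripts compared above had 694 and 908 bases. For Defb14 it was 204 bases by either measure. The order by transcript length was not examined. At the other 6 steps the ranges of neighbours in this order overlapped. In the double-knockout-labelled libraries Defb6, at 469 CPM per exonic kb, and Defb1, at 45.2, again led, and Defb3 came next, at 6.71, on the counts of 1 library.

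The double knockout library of replicate 3 was thus the highest of the 6 libraries for 5 of the 10 genes: Defb3, Defb6, Defb14, Lcn2 and Wfdc12. The share of all genes that peak in that library was not counted, so the 5 cannot be read as particular to these genes. The keratinocyte marker Flg peaked there too, at 586 CPM against 99.6 and 149 CPM in replicates 1 and 2. For the 10 genes, the ratio of replicate 3 to the mean of the other 2 double-knockout-labelled libraries was 151 for Defb3, 14.01 for Defb14, 10.3 for Lcn2, 3.02 for Defb6 and 2.22 for Wfdc12. It was 1.92 for Slpi, 1.65 for Defb4 on 1 count, 1.08 for Defb1, 0.790 for Reg3g and 0.699 for Pglyrp1. The summed CPM of all 10 genes was 123, 147 and 106 in control replicates 1 to 3 and 188, 80.1 and 339 in the double-knockout-labelled libraries, so that replicates 2 and 3 of the latter were the extremes of the 6 libraries.

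Several defence and cytokine genes outside the 10, chosen here after their values were seen, were also highest in that library. S100a8, a subunit of calprotectin, was at 2.08, 0.265 and 0.0651 CPM among the controls and at 24.0, 4.23 and 172 CPM in the double-knockout-labelled libraries (log2 fold change 6.14, edgeR adjusted p 0.119). Its partner S100a9 was at 0.581, 0.707 and 0.326 CPM among the controls and at 7.60, 2.52 and 70.8 CPM in the double-knockout-labelled libraries (log2 fold change 5.30, edgeR adjusted p 0.0797). For both calprotectin genes, unlike the 10, every double-knockout-labelled library lay above every control, although neither passed the threshold. Il1f6, which encodes the cytokine IL-36 alpha, was at 6.31, 3.09 and 3.45 CPM among the controls and 5.21, 3.82 and 32.6 CPM in the double-knockout-labelled libraries (log2 fold change 1.61, edgeR adjusted p 0.231). Il17a, the gene of interleukin-17A, had 8 counts in that library and 0 in the other 2 of its group, against 1, 2 and 0 in the controls. Other genes on the same list did not all share this. Il17f had 2, 11 and 0 counts among the controls and 0, 2 and 9 in the double-knockout-labelled libraries. Il17c had 7, 0 and 1 against 6, 0 and 10, and Il22 had 5, 7 and 1 against 0, 0 and 0. None of these was tested.

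**Figure D2:**
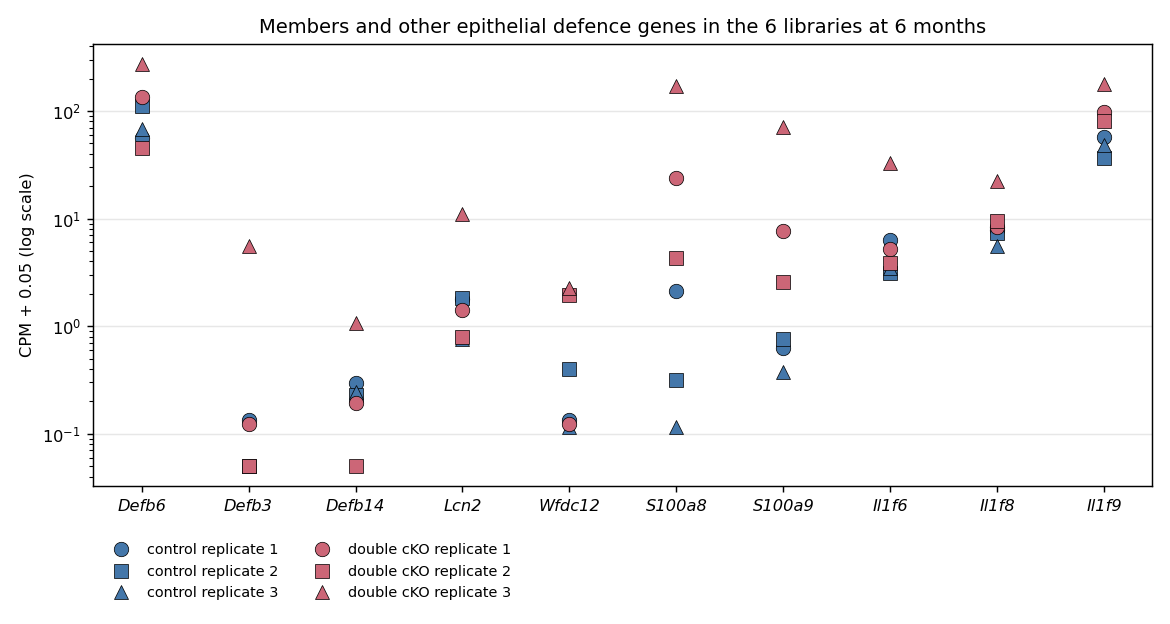
CPM plus 0.05 on a log scale in the 6 libraries at 6 months for 5 of the 10 genes and for 5 other epithelial defence genes; colour gives the group and symbol the replicate. All genes drawn were picked after their values were seen, so the double knockout library of replicate 3 is the highest point in every column by choice. It is at 273 CPM for Defb6 and 172 CPM for S100a8. The other 5 of the 10 genes, Defb1, Defb4, Slpi, Reg3g and Pglyrp1, do not peak in it and are not drawn.

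Markers of neutrophils, which themselves carry Lcn2 and Pglyrp1 in their granules, were read in the same libraries. The 16 markers summed to 15.1 to 21.1 CPM among the controls and to 97.6, 55.4 and 287 CPM in the double-knockout-labelled libraries, and 7 of the 16 were tested, with 1 called higher and 0 lower. The called gene was Cxcr2, a chemokine receptor gene, at 0.363 ± 0.121 CPM among the controls and 33.2 ± 11.1 CPM in the double-knockout-labelled libraries (SD, n = 3 each). S100a8 and S100a9, which stressed keratinocytes also make, are on this list. Csf3r had 23, 34 and 0 counts among the controls and 26, 1 and 17 in the double-knockout-labelled libraries. Mmp8 had 5, 10 and 0 against 15, 10 and 16, and Mmp9 had 85, 68 and 217 against 220, 276 and 281. Retnlg had 3, 6 and 0 against 0, 4 and 2, Prtn3 6, 5 and 0 against 0, 0 and 0, and Ctsg 10, 2 and 0 against 0, 0 and 0. The 6 markers taken here as defining, Ly6g, Elane, Mpo, Ngp, Camp and Ltf, summed to 40, 99 and 4 counts in control replicates 1 to 3. The first 2 of these are the libraries with the high receptor-gene background. In the double-knockout-labelled libraries the 6 markers summed to 16, 6 and 20 counts, and Elane and Mpo were at 0 in all 3. In the double knockout library of replicate 3, which had the most Lcn2 at 6 months, these 6 came to 1.13 CPM in all, against 1.16 and 0.409 CPM in replicates 1 and 2, and 0.260 CPM in control replicate 3. The wound and stress keratinocyte markers Krt6a, Krt6b, Krt16, Krt17 and Sprr1b summed to 463 to 723 CPM among the controls and 3481 to 4386 CPM in the double-knockout-labelled libraries, with 4 of 5 called higher. Replicate 3 was not the highest of these, at 4350 CPM. Of 4 sebaceous gland markers 1 was called lower, the lipid desaturase gene Scd1, at 718 to 848 CPM among the controls and 168 to 224 CPM in the double-knockout-labelled libraries. Mgst1 (-0.18), Elovl3 (-1.37) and Awat2 (0.58) were not called, and the 3 double-knockout-labelled libraries lay above the controls for Awat2. Fibroblast markers summed to 53.0, 157 and 55.7 CPM in control replicates 1 to 3 and to 11.7, 22.9 and 23.0 CPM in the double-knockout-labelled libraries. Of these 6 markers 3 were called lower and 0 higher. The 5 hair follicle markers summed to 50.3, 97.5 and 65.9 CPM against 16.9, 14.9 and 39.0 CPM, with 1 called lower and 0 higher. The part of these cell type differences in the levels of the 10 genes was not tested.

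The promoters of Defb6 and Defb3 are shown because both genes peaked in the same library and their upstream sequences resemble each other. RefSeq promoter windows on GRCm38.p6 matched 7 of the 10 genes, and Defb1, Defb4 and Defb14 were not matched. The 250 bases before the start are printed 5′ to 3′ on the plus strand, with motif matches in capitals: TTGCNNAA, bound by C/EBP factors, and the TATA box letters TATATAA, the latter searched only after the sequences had been seen.
Defb6 promoter, chr8:19225228-19225477: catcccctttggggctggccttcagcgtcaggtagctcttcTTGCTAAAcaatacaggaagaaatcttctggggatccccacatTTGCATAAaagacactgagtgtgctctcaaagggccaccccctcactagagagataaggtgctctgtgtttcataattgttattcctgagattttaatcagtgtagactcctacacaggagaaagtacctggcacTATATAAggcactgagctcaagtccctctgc
Defb3 promoter, chr8:19293111-19293360: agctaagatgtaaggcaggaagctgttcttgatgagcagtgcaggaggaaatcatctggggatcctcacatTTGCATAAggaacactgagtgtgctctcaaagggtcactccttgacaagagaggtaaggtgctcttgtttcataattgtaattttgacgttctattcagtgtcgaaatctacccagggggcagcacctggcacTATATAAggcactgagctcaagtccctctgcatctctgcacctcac
The windows aligned with 196 of 265 columns identical (73.96%), against 46.52% to 52.65% for the other pairs of the 7. TATATAA began at position -31 in Defb6 and -46 in Defb3, counted from the RefSeq start, and 3.24% of the 32851 windows of all genes hold it. TTGCNNAA was present in 5 of the 7 windows, those of Defb3, Defb6, Lcn2, Slpi and Wfdc12, and in 10.8% of all windows. It occurred at positions -209 and -166 in Defb6 and -179 in Defb3. The matches at -166 and -179 have the same letters within similar sequence, so the 5 windows are not independent of each other. The AP-2 motif GCCNNNGGC was in 0 of the 7 windows and 16.6% of all, the STAT motif TTCNNNGAA in 0 and 8.3%, the AP-1 motif TGANTCA in 0 and 7.81%, and the NF-kB motif (GGG and TTTCC with any 2 bases between) in 1, that of Pglyrp1, and 1.63%. Both strands were searched over 250 bases before to 50 bases after the start. A match is a run of letters in a window and shows no binding, and the lack of one says nothing of sites elsewhere.

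The other beta-defensin genes were barely represented. Of 38 in the files, 3 were at 0 in all 8 libraries, none passed the filter on low counts, and no count exceeded 18. From genes near Defb1 on chromosome 8, Defb9, Defb11, Defb13, Defb15 and Defb35 were picked out after their values were seen. These 5 summed to 59, 23 and 18 counts in control replicates 1 to 3 and to 1, 7 and 1 counts in the double-knockout-labelled libraries. All 3 controls lay above all 3 of the latter, a separation that the choice of genes may have set. Defb13 alone had 18, 12 and 6 counts against 0, 0 and 0, while Defb9 had 7, 0 and 0 against 1, 2 and 0. Genes not picked included Defb2 and Defb10, each with 0, 1 and 0 counts against 0, 0 and 0. Defb50, also not picked, had 0, 6 and 0 against 0, 0 and 0. The 5 genes had no test, and 8.716% to 37.16% of the 50-base stretches of Defb9, Defb11, Defb15 and Defb35 occur in other genes, whereas those of Defb13 do not. The 3-week libraries labelled Tfap2b knockout held 13 and 48 counts of the 5 genes. Control replicate 3, in which the receptor-gene background was 0.147 counts per exonic kb, held 18 counts of them.

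**Figure D3:**
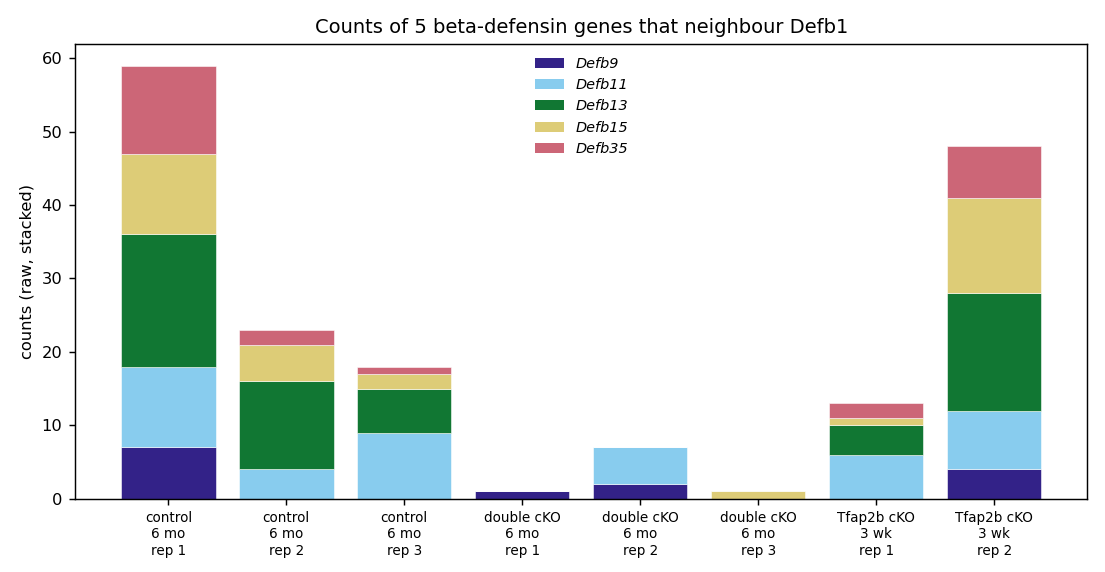
Raw counts of 5 beta-defensin genes near Defb1, picked after their values were seen and not all of the beta-defensins listed, stacked by gene, in each library with counts. The 3 control bars at 6 months reach 59, 23 and 18 counts and the 3 double knockout bars 1, 7 and 1.

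Among secreted antimicrobial genes of other families, the chemokine genes Ccl20 and Cxcl14 were lower in the double-knockout-labelled libraries. Of 39 such genes in the files 21 were tested, and 0 were called higher and 2 lower, with a median log2 fold change of -0.65. For this list and those that follow, 14.9% of all genes tested is the share to read the calls against. Ccl20, a chemokine with antibacterial activity that shares the receptor Ccr6 with beta-defensins, fell from 6.37 ± 5.41 to 1.36 ± 0.579 CPM (mean and SD, n = 3 each), a difference of -2.17 on the log2 scale (edgeR standard error 0.62, adjusted p 0.0397). Ccl20 stood at 12.6 CPM in control replicate 3 against 3.99 and 2.56 in the other controls, and its log2 fold change fell short of the threshold without that library, at -1.17. Cxcl14, a chemokine made constitutively in skin that also kills bacteria, fell from 99.1 ± 28.1 to 41.6 ± 20.8 CPM (mean and SD, n = 3 each), a difference of -1.31 on the log2 scale (edgeR standard error 0.36, adjusted p 0.0441). Leaving out any 1 library but the double knockout library of replicate 3 ended the call for Cxcl14, at -1.51 to -1.01, and any 1 but control replicate 2 ended that for Ccl20. The most abundant members not called were Cst3, a protease inhibitor (-0.34), Rnase4, a ribonuclease (0.55), and Pglyrp4, a peptidoglycan recognition protein of skin (-0.21).

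Among other genes with a WAP domain, the family of Slpi and Wfdc12, 3 of 19 were tested and 2 of them fell. Wfdc21 was at 48.7, 32.6 and 26.1 CPM among the controls and 9.20, 16.1 and 7.89 CPM in the double-knockout-labelled libraries, with no overlap (log2 difference -1.76, standard error 0.33, edgeR adjusted p 0.0100). Of the 16 alternatives run, 1 ended this call, that without the double knockout library of replicate 1, at -1.59. Wfdc5, next to Wfdc12 on chromosome 2, was at 101, 65.1 and 55.2 CPM among the controls and 38.9, 47.5 and 27.9 CPM in the double-knockout-labelled libraries (log2 difference -1.03, standard error 0.27, edgeR adjusted p 0.0325). The call for Wfdc5 was lost without control replicate 1 or 2 or without the double knockout library of replicate 1 or 3, at -1.11 to -0.73. Of the 50-base stretches of Wfdc5, 1.408% also occur in A730032A03Rik. Wfdc3 was at -1.30 and did not pass (edgeR adjusted p 0.389).

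**Figure D4:**
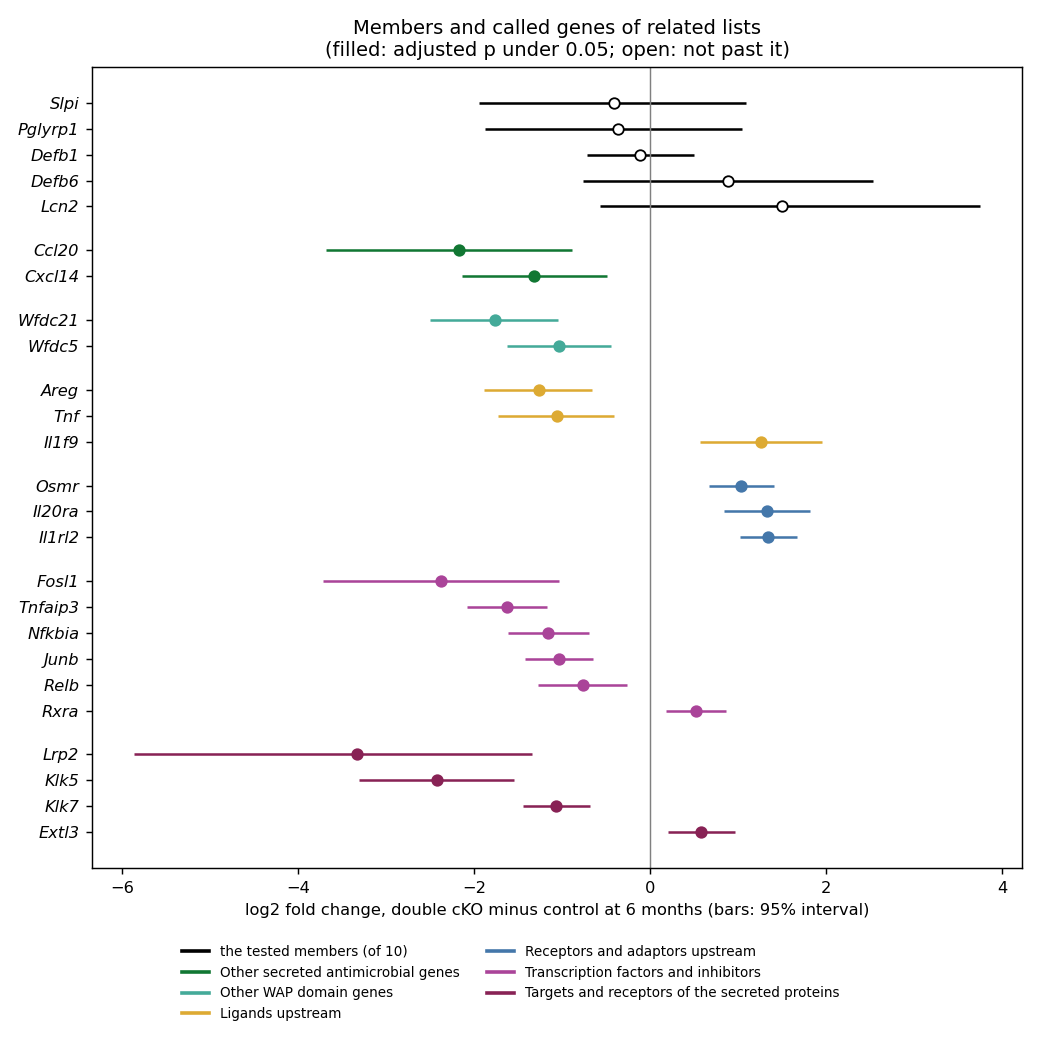
Log2 fold change, double-knockout-labelled libraries minus control at 6 months, with 95% intervals, for the 5 tested genes of the 10 (open circles, none past the threshold) and for the called genes of related lists (filled circles). The intervals of Defb1, Defb6, Lcn2, Slpi and Pglyrp1 all cross 0, while Il1rl2 stands at 1.34 and Klk5 at -2.42.

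Of the receptors and adaptors that act upstream of antimicrobial genes in keratinocytes, 24 of 25 were tested, and 3 rose and 0 fell, around a median of 0.0034. Il1rl2, the receptor chain for IL-36 cytokines, rose from 222 ± 24.3 to 593 ± 75.6 CPM (mean and SD, n = 3 each), a difference of 1.34 on the log2 scale (edgeR standard error 0.14, adjusted p 0.000875). Osmr, the oncostatin M receptor, rose from 103 ± 14.7 to 223 ± 39.8 CPM (mean and SD, n = 3 each), a difference of 1.04 on the log2 scale (edgeR standard error 0.16, adjusted p 0.00492). Il20ra, a receptor chain for interleukins 19, 20 and 24, rose from 52.1 ± 6.62 to 138 ± 42.5 CPM (mean and SD, n = 3 each), a difference of 1.33 on the log2 scale (edgeR standard error 0.22, adjusted p 0.00572), a call lost only with all libraries in one fit. Egfr, Il6ra and Il6st, the most abundant members that did not pass, were at -0.20, -0.01 and -0.24.

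Among 18 ligands 9 were tested, and 1 rose and 2 fell, with a median of -0.35. Il1f9, the gene of IL-36 gamma, rose from 47.4 ± 10.6 to 120 ± 52.5 CPM (mean and SD, n = 3 each), a difference of 1.26 on the log2 scale (edgeR standard error 0.31, adjusted p 0.0297), and was not past the threshold without control replicate 1 or 2 or the double knockout library of replicate 1, at 1.11 to 1.44. Its 3 double-knockout-labelled libraries held 98.9, 80.5 and 179 CPM, all above the 36.6 to 57.7 CPM of the controls. Areg, a ligand of the EGF receptor, fell from 40.4 ± 8.97 to 17.6 ± 5.86 CPM (mean and SD, n = 3 each), a difference of -1.27 on the log2 scale (edgeR standard error 0.27, adjusted p 0.0168), and was not past it without control replicate 2 or the double knockout libraries of replicate 1 or 2. Tnf, an inducer of NF-kB, fell by 1.06 on the log2 scale (SE 0.30, edgeR adjusted p 0.0397), although 11.0 CPM in the double knockout library of replicate 2 exceeded 10.8 CPM in control replicate 1. The call for Tnf was lost without any 1 library other than control replicate 1. The EGF receptor ligands Tgfa (-0.09) and Hbegf (-0.85) and the IL-36 beta gene Il1f8 (0.88) did not pass.

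All 21 transcription factors and inhibitors on the list were tested, and 1 rose and 5 fell, with a median of -0.13. The negative regulators of NF-kB Tnfaip3 and Nfkbia both fell: Tnfaip3, which encodes the ubiquitin-editing enzyme A20, went from 444 ± 47.8 to 152 ± 41.8 CPM (mean and SD, n = 3 each), a difference of -1.62 on the log2 scale (edgeR standard error 0.20, adjusted p 0.00167), and Nfkbia, which encodes the inhibitor IkB alpha, from 479 ± 55.1 to 226 ± 62.6 CPM (log2 difference -1.16, standard error 0.21, edgeR adjusted p 0.00850). The AP-1 gene Junb fell from 503 ± 97.5 to 259 ± 24.6 CPM (mean and SD, n = 3 each), a difference of -1.03 on the log2 scale (edgeR standard error 0.17, adjusted p 0.00589). Fosl1, another AP-1 gene, fell from 283 ± 167 to 57.7 ± 25.9 CPM (SD, n = 3 each; edgeR adjusted p 0.0391), a log2 fold change of -2.37 that was -1.77 and not past the threshold without control replicate 1. It was also not past it without any other library but control replicate 3. Relb, an NF-kB subunit, fell by 0.76 (edgeR adjusted p 0.0495) and Rxra, the partner of the vitamin D receptor, rose by 0.52 (edgeR adjusted p 0.0467) on the log2 scale. Leaving out any 1 library but the double knockout library of replicate 3 ended the call for Relb, and leaving out any 1 but control replicate 3 ended that for Rxra. Nfkbiz, Stat3 and Nfkb1, which mediate responses to interleukin-17 and to cytokines that signal through STAT3, were at 0.37, 0.14 and 0.10 and did not pass.

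Last, 13 genes for receptors and processing enzymes of the secreted proteins were read, of which 7 were tested, with 1 higher, 3 lower and a median of -0.45. The kallikrein genes Klk5 and Klk7, serine proteases of the stratum corneum that cut antimicrobial precursors, both fell. Klk5 was at 138, 68.5 and 69.5 CPM among the controls and 10.6, 24.8 and 18.7 CPM in the double-knockout-labelled libraries (log2 difference -2.42, standard error 0.38, edgeR adjusted p 0.00742). Klk7 was at 356, 232 and 296 CPM among the controls and 141, 143 and 161 CPM in the double-knockout-labelled libraries (log2 difference -1.07, standard error 0.17, edgeR adjusted p 0.00495). Neither gene's groups overlapped. Lrp2, a receptor that takes up lipocalin, was called lower (-3.33, edgeR adjusted p 0.0447) largely on the 192 counts of control replicate 2, a library in which receptor-gene background was highest, and was at -1.82 without it (edgeR adjusted p 0.145). The call for Lrp2 was also lost without control replicate 1 or any 1 double-knockout-labelled library. Extl3, a receptor of Reg3 proteins, rose by 0.58 on the log2 scale (SE 0.17, edgeR adjusted p 0.0463), and lost its call without any 1 library but control replicate 3. Slc22a17, another lipocalin receptor (-0.45), and the serine protease genes St14 (-0.06) and Tmprss11e (-0.07) did not pass. Of the 20 genes called in these lists, Il1rl2, Osmr, Tnfaip3, Nfkbia, Junb, Klk5 and Klk7 were called in all 16 alternatives run. Without control replicate 3, Hbegf (-1.05), Nfkbiz (0.55) and Rnase4 (0.72) also passed the threshold, and without the double knockout library of replicate 3 so did Wfdc3 (-3.08). The former fit rests on control replicates 1 and 2, those with the high receptor-gene background. Without a filter on low counts Hbegf (-0.71), Rnase4 (0.66) and Il1f8 (1.00) passed it, and under DESeq2 Hbegf (-0.85). Beside the libraries left out, a fit of all 8 libraries ended the calls for Ccl20, Cxcl14, Wfdc5, Il20ra, Il1f9, Tnf, Relb, Rxra, Lrp2 and Extl3. The replicate block ended those for Relb, Rxra, Lrp2 and Extl3, limma-voom those for Ccl20, Tnf, Relb and Lrp2, background subtraction those for Rxra and Extl3, the absence of a filter those for Fosl1 and Relb, and total counts that for Relb. In all, Relb lost its call in 10 of 16 alternatives, Rxra and Extl3 in 8 of 16 each, and Lrp2 in 8 of the 14 that tested it.

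At 3 weeks the 10 genes could be read only in 2 libraries labelled Tfap2b knockout, with no counted control of that age, so their levels are a description. Defb6 was at 12.5 and 21.3 CPM, below every 6-month library, where the lowest was 45.1 CPM. Defb1, at 17.7 and 46.0 CPM, overlapped the range at 6 months, and per length Defb6 (52.2 CPM per exonic kb on average) stood nearer to Defb1 (36.5) than at 6 months. Lcn2 was at 20.1 CPM in replicate 1 and 1.20 CPM in replicate 2, and the former was the highest value of Lcn2 in all 8 libraries. That library also stood apart in markers of other cells, with summed fibroblast markers at 2556 CPM against 17.3 in replicate 2, adipocyte markers at 930 against 0.480 and endothelial markers at 364 against 0.320 CPM. Scd1 was at 8197 against 524 CPM there, while the sebaceous gene Awat2 was at 0.925 against 2.00 CPM, and the part of these markers in the Lcn2 value was not tested. Its neutrophil-defining markers summed to 9 counts. Slpi had 4 and 3 counts and Wfdc12 had 6 and 11 counts, while Defb4 and Reg3g were at 0 in both libraries.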

How the data were processed

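Samples were grouped, and replicates numbered, by their titles. The deposited values are raw counts, 1 whole number for each of 49315 Ensembl identifiers, with exon coordinates. Trimmomatic 0.36, STAR 2.5.2b, featureCounts, Subread 1.5.2 and the builds GRCm38 and GRCh38 are named in the submitters' processing notes, without settings, and the use of strand is not given in the sources used here. Of the identifiers, 99.3% were in GENCODE M21 for GRCm38, all of them on the same chromosome, so coordinates in the files were read as GRCm38. The 13 files listed at 0 throughout were left out, which left 11318181 to 17746284 counts per library.

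CPM was computed here on the total of each library. For comparison between genes it was divided by exonic kb. The 6 libraries at 6 months were compared with edgeR 4.0.16 in R 4.3.3 (filterByExpr, TMM factors, robust glmQLFit, prior count 2, glmQLFTest), calling genes at a Benjamini-Hochberg adjusted p under 0.05 across all genes tested. The printed log2 fold changes are shrunk by the prior count. Standard errors and 95% intervals are those of the unshrunk log2 fold change, so an interval is not centred on the printed value. The standard error was taken as the size of the unshrunk value over the square root of the F statistic. A listed 0 allows for as many as 3 counts, a limit that covers counting error only, as reads without molecular identifiers are not independent molecules. The biological coefficient of variation was 0.311. The fit was also run on simulated counts with 200 genes changed 4-fold. These held neither the receptor-gene background nor a single outlying library, so that run cannot show how such features affect the calls. Alternatives were other scalings, filters and tests (DESeq2 1.42.0 and limma-voom with limma 3.58.1), all libraries in one fit, the replicate number as a block, leaving out the 20 most counted genes, subtraction of a background, and each library left out in turn. This background was estimated from 1420 autosomal odorant and vomeronasal receptor genes, as counts per exonic kb, and scaled to each gene's exonic length.

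The genes, the gene lists and the tests were chosen with earlier results of these data known. Named beside the 10 were, from each list, the genes past the threshold (at most 8 by size of change) and at most 3 others by mean CPM, and the AP-2 genes. Genes most like a called member were also to be named, and there was no called member. Il1f6, Il1f8 and Il1f9 are the symbols in the annotation for the listed Il36a, Il36b and Il36g, and Il36rn, Anos1 and Trgc1 were not matched. Coding sequences were assembled from GENCODE M21, and identities come from global alignments (Biopython 1.88). A planned comparison of RefSeq proteins was not run, as no protein table was used here.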

Additional observations from a re-analysis of the deposited data

Results flagged for a closer look

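The 2 libraries labelled Tfap2b knockout at 3 weeks enter no comparison between groups, and 7 of the 10 genes exceeded 3 counts, the number that a count of 0 allows, in replicate 1, and 5 in replicate 2. No control of that age with counts was analysed here. In replicate 1 the levels were 17.7 CPM for Defb1, 12.5 CPM for Defb6, 0.308 CPM each for Defb14 and Slpi, 20.1 CPM for Lcn2, 0.463 CPM for Wfdc12 and 1.08 CPM for Pglyrp1. In replicate 2 they were 46.0 CPM for Defb1, 21.3 CPM for Defb6, 1.20 CPM for Lcn2, 0.879 CPM for Wfdc12 and 0.639 CPM for Pglyrp1. Groups of 3 are too small for a test of single outlying libraries.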

How the results depend on the processing

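Counts were too low to test 5 of the 10 genes. The number of genes called, 2637, was 4809 with no filter on low counts, 1729 with the replicate block, 1548 in a fit of all 8 libraries, and between 668 (without the double knockout library of replicate 1) and 7544 (without control replicate 3) when 1 library was left out, while the other 7 alternatives gave 2188 to 3835. The fit with 7544 calls kept only the controls with the high receptor-gene background. Of the called genes 42.1% were higher, and 50.9% were with total counts. Without a filter the median log2 fold change of all genes moved to -0.56, and 2 of the 10 genes, Defb3 and Lcn2, were called higher, against 0 in the other 15 alternatives; 0 were called lower in all 16. Correlations between controls and libraries labelled double knockout of the same replicate number, taken on deviations from the group means, were 0.0276, -0.161 and -0.0574. These show no pairing by number but, with groups of 3, cannot exclude it. With the replicate block 0 of the 10 genes were called. The 20 mean levels of the 10 genes under TMM scaling, and the 5 motif counts without the bases after the start, moved by less than the spread between replicates or not at all.

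Among the named genes, signs turned only for genes that were not called. With total counts the log2 fold change was 0.05 for Il6ra and 0.0071 for St14. With no filter it was 0.0097 for Defb1, 0.097 for Il6ra, 0.031 for Tgfa, 0.053 for St14 and 0.047 for Tmprss11e. It was 0.032 for Il6ra with all libraries in one fit, and 0.21 with the background subtracted and 0.028 under limma-voom for Tmprss11e. With 1 library left out the values ranged from -0.40 to 2.02 for Lcn2, -0.38 to 0.020 for Il6st, -0.30 to 0.25 for Defb1, -0.74 to 0.10 for Slpi, -0.40 to 0.10 for Pglyrp4, -0.19 to 0.22 for Il6ra, -0.38 to 0.24 for Tgfa, -0.13 to 0.091 for St14 and -0.19 to 0.25 for Tmprss11e. The cause was not tested.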
